A study of Mus musculus with 13 samples.

Results

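Ctgf, Cyr61, Tgfbi, Thbs1 and Ltbp2 are 5 genes commonly used as readouts of SMAD3 activity in fibroblasts. The annotated span of each gene was extended by 10 kb on each side, and SMAD3 and OCT4 peaks sharing at least 1 bp with that window were described, for 5 of 21938 protein-coding genes. In the merged lists, called on pooled replicates, 5 of 5 genes had a SMAD3 peak after induction of the reprogramming factors and 5 of 5 without it, beside 52.5% and 48% of all protein-coding genes, although 1 of the 3 replicate lists with induction had no peak at any of them. Both sites at these genes that the differential binding table lists had lower SMAD3 after induction. They lay at 2 of 5 genes, beside 3.85% of all protein-coding genes with such a lower site, a share that includes genes without any SMAD3 peak. The 5 genes were chosen with earlier results of these data known. At both sites the replicate fold enrichments overlapped between the groups, and at the Thbs1 site the merged fold was higher after induction. An OCT4 peak was found at 1 of 5 genes, upstream of Ctgf, beside 4.85% of all protein-coding genes. It was called on pooled replicates only and was in none of the 3 OCT4 replicate lists.

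The binding data are ChIP-seq from mouse embryonic fibroblasts (MEFs) with a doxycycline (dox)-inducible cassette encoding c-Myc, Klf4, Oct4 and Sox2 (MKOS). Per the methods of the study, these cells come from a mouse line of mixed genetic background with 1 tetO-MKOS-ires-mOrange allele in the Sp3 locus, the CAG-rtTA transactivator and a Nanog-GFP reporter allele. All 13 samples were infected with a retroviral vector expressing constitutively active Smad3 (Smad3CA) and collected on day 3, so no group lacks Smad3CA. SMAD3 was immunoprecipitated from cells given dox (Dox+, n = 3) and from cells without dox (Dox-, n = 3), OCT4 from Dox+ cells (n = 3), and input DNA was sequenced from Dox+ (n = 2) and Dox- (n = 2) cells. The labels give dox at 1 µg/ml, whereas a lower concentration stands in the study's general reprogramming protocol, and which applied to these samples was not resolved. The labels do not say that replicates came from separate cultures, so p-values measure the spread between these samples only, which may be technical. The cells were not checked against fibroblast markers, because the binding files analysed hold no expression values and expression data were not used here.

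TGF-β and activin receptors phosphorylate SMAD3, which then enters the nucleus with SMAD4 and binds DNA weakly at short SMAD motifs, usually beside other transcription factors such as AP-1. In fibroblasts the pathway is known for activating matrix genes. Ctgf (connective tissue growth factor, annotated as Ccn2) and Cyr61 (annotated as Ccn1) encode secreted matricellular proteins of the CCN family and are also well-known targets of YAP and TEAD. Tgfbi encodes a secreted adhesion protein with fasciclin domains. Thbs1 encodes thrombospondin 1, a matrix glycoprotein that can release active TGF-β from its latent form, and Ltbp2 encodes a microfibril protein of the latent TGF-β binding protein family.

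The loci are given on the mm10 assembly with the GENCODE vM21 annotation. Ctgf (ENSMUSG00000019997.11) lies on the plus strand at chr10:24595442-24598683 and is 3.24 kb long. Cyr61 (ENSMUSG00000028195.4) lies on the minus strand at chr3:145646976-145649981 and is 3.01 kb long. Tgfbi lies at chr13:56609523-56639562 (plus strand, 30.0 kb), Thbs1 at chr2:118111876-118127133 (plus strand, 15.3 kb) and Ltbp2 at chr12:84783212-84876532 (minus strand, 93.3 kb). The Thbs1 window also holds part of the protein-coding gene Fsip1 and the Ltbp2 window Isca2, while the other 3 windows hold no second protein-coding gene.

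The genome sequence at the center of the best-supported SMAD3 peak of each gene is shown because these peaks had the widest support among the replicate lists. For each gene the merged peak overlapped by the most replicate SMAD3 lists was taken, and among equals the one with the higher fold enrichment. Of the 6 SMAD3 replicate lists, 5 overlapped the Thbs1 peak, 4 each the Ctgf, Cyr61 and Tgfbi peaks and 3 the Ltbp2 peak. The peaks lay at chr3:145651327-145651626, 1.5 kb upstream of the Cyr61 start in an exon of the noncoding gene Gm17501, at chr13:56600507-56600806, between genes 8.87 kb upstream of Tgfbi, at chr2:118128465-118128764, between genes just past the 3′ end of Thbs1, and at chr12:84846624-84846923, in an intron of Ltbp2. The 300 bases are written on the plus strand of GRCm38, and capitals mark matches on either strand to 5 motifs. These were the SMAD half-site CAGAC, the GC-type SMAD site GGCGC, the AP-1 pattern TGANTCA, the TEAD site GGAATG and the octamer ATGCAAAT, which OCT4 recognizes. N stands for any base, so the AP-1 pattern is looser than the usual AP-1 site, which has C or G there.
Cyr61: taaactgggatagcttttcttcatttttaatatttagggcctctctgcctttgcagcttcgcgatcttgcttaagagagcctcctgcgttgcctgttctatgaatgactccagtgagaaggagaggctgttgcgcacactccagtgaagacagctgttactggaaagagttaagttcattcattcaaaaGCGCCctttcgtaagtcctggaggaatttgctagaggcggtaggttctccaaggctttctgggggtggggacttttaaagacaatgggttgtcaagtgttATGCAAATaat
Tgfbi: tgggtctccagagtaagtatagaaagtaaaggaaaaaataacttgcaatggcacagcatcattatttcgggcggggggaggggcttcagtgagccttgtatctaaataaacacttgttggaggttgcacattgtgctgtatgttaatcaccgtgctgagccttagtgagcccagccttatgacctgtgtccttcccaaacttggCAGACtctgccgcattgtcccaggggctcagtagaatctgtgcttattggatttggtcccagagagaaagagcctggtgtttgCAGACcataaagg
Thbs1: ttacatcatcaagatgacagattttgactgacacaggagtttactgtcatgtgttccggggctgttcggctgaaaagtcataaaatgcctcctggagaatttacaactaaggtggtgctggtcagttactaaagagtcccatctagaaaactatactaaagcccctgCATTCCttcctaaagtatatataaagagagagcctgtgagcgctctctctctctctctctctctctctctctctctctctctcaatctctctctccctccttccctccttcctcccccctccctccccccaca
Ltbp2: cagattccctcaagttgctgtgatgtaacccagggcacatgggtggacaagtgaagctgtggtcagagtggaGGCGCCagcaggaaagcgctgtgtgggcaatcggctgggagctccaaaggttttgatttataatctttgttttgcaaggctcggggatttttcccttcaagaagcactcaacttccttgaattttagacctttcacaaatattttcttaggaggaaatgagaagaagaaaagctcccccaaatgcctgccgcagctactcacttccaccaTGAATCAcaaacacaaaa

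The motifs differed between the genes. The Tgfbi sequence held 2 SMAD half-sites, the Cyr61 sequence a GC-type SMAD site and an octamer, and the Thbs1 sequence a TEAD site. The Ltbp2 sequence held a GC-type site that reads on both strands and overlaps itself. It also held TGAATCA, a match to the AP-1 pattern without C or G in the middle. The Ctgf peak is centered at the gene start and its bases are mostly 5′ UTR, so they are not printed, but they held 3 SMAD half-sites and 1 GC-type site, all in the 5′ UTR. In all, 2 of 5 windows held CAGAC and 3 held GGCGC, beside 47.9% and 57.9% of the 24088 windows of 300 bp around all merged SMAD3 peak centers. The AP-1 pattern with any middle base (1 of 5) stood in 9.05% of those windows, the TEAD site (1 of 5) in 13.6%, and the octamer (1 of 5) in 1.0%. These matches are letters of the reference and do not show which base was bound.

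The OCT4 peak in the Ctgf window is shown with 300 bases around its summit, chr10:24590580-24590879 on the plus strand, since it is the only OCT4 peak at the 5 genes.
Ctgf OCT4 summit: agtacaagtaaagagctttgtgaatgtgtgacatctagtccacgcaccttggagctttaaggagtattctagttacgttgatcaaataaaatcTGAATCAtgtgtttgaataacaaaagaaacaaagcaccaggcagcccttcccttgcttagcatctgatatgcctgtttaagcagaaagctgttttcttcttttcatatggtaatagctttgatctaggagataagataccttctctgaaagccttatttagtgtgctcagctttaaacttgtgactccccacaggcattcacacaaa
The capitals mark TGAATCA, a match to the AP-1 pattern without C or G in the middle, and the only match of the 5 motifs. Matches to the AP-1 pattern with any middle base stood in 14.4% of the 300-bp windows around the 2083 merged OCT4 summits, and octamer matches in 7.92%.

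Replicate lists differed widely in length, which bears on every count below. In Dox+, replicates 1, 2 and 3 had 420, 23981 and 10374 SMAD3 peaks, and in Dox- 1656, 18588 and 4038. The merged lists, called on the pooled replicates, held 12576 (Dox+) and 11512 (Dox-) peaks, and the merged OCT4 list 2083. Replicate 1 of Dox+ had no peak at any of the 5 genes, while replicates 2 and 3 had 12 peaks at 5 genes and 10 peaks at 4. Replicate 1 of Dox- had 1 peak, at Thbs1, while replicates 2 and 3 had 17 and 7 peaks, each over all 5 genes. The −log10 q-values of these replicate SMAD3 peaks ranged from 0.408 (Thbs1, Dox- replicate 3) to 5.66 (Thbs1, Dox+ replicate 2), so some calls were weak. None of the 3 OCT4 replicate lists had a peak at any of the 5 genes.

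The merged lists had a SMAD3 peak at 5 of 5 genes in each group, beside the 52.5% (Dox+) and 48% (Dox-) of all protein-coding genes. With peaks limited to a −log10 q-value of at least 2, these counts were 4 in Dox+ and 3 in Dox-. The shares of all protein-coding genes were not computed at this limit, so these 2 counts have no background. Among the 16857 genes whose window was within the range of window lengths of the 5 genes, the shares were 54.5% and 49.5%. The annotated gene start itself lay in a merged peak in Dox+ for 3 of 5 genes (Ctgf, Cyr61 and Thbs1) and in Dox- for 4 of 5 (the same 3 and Ltbp2), beside 31.4% and 25.4% of all protein-coding genes. The map of peaks by distance from the gene start shows that the lists placed SMAD3 at the start and the 3′ side of the short CCN genes, at both ends of Thbs1, far upstream of Tgfbi and inside Ltbp2. Peaks were joined across lists into 20 regions, of which Ctgf and Cyr61 had 2 each, Tgfbi and Ltbp2 5 each and Thbs1 6.

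**Figure D1:**
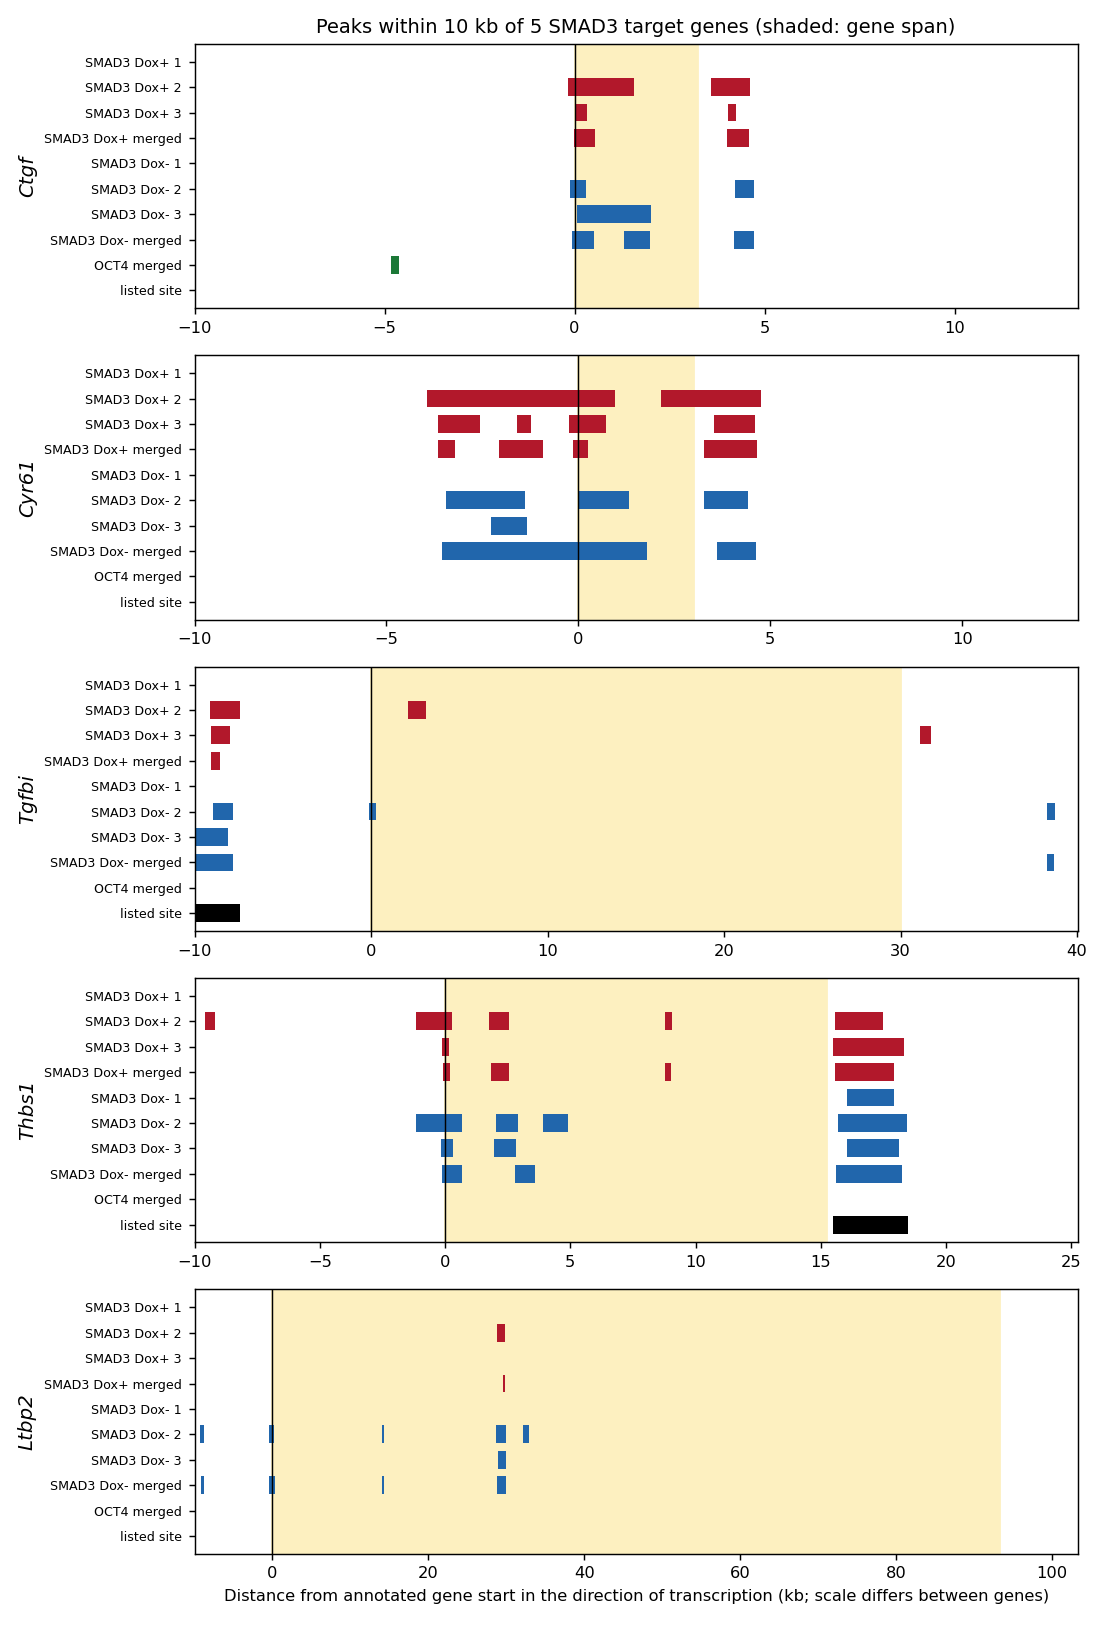
SMAD3 and OCT4 peaks at the 5 genes, by distance from the annotated gene start in kb in the direction of transcription. Red bars are SMAD3 Dox+ peaks, blue bars SMAD3 Dox- peaks, the green bar the merged OCT4 peak, black bars listed differential sites and yellow the gene span. Replicate 1 of Dox+ is empty at every gene, and the 2 listed sites lie outside the Tgfbi and Thbs1 gene spans.

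Of the 2 CCN genes, Ctgf carried SMAD3 at its start and again at 3.59 to 4.72 kb, past its 3′ end. At the start, the fold enrichment over input was 2.54 in both Dox+ replicates with a peak (2 and 3), and 2.22 and 2.33 in Dox- replicates 2 and 3. The merged start peaks had a fold of 2.45 in Dox+ and 1.86 in Dox-, at the 60.8th and 11.4th percentile of all peaks in their lists. The downstream region was found in Dox+ replicate 2 (fold 3.74), Dox+ replicate 3 (2.78) and Dox- replicate 2 (2.92), and its merged folds were 2.23 and 2.33. The start and downstream regions were thus called on both sides of the dox comparison, and neither was listed as differential.

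Cyr61 had the broadest SMAD3 peaks of the 5 genes. Its upstream region ran from 3.94 kb before the start to 1.78 kb after it. In Dox+ replicate 2 this region was 1 peak of 4891 bp (fold 2.81) and in replicate 3 it was 3 separate peaks with folds from 2.02 to 2.51. In Dox- replicate 2 it was 2 peaks (2.18 and 2.15) and in replicate 3 a single one (2.55). The merged Dox+ peak 1.5 kb upstream of the start, whose central sequence is given above, spanned 1123 bp. It had a fold of 4.20, at the 95.1st percentile of its list. The merged Dox- list had 1 peak of 5332 bp that included these bases, with a fold of 2.51. The folds belong to peaks of unlike width and are not a like comparison. A second region at 2.16 to 4.75 kb had merged folds of 2.04 in Dox+ and 2.56 in Dox-.

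Tgfbi carried SMAD3 far from its start. The region at 9.9 to 7.45 kb upstream was called in 4 replicate lists, with folds of 2.28 and 1.99 in Dox+ replicates 2 and 3 and 2.48 and 2.22 in Dox- replicates 2 and 3. These were weak calls. The −log10 q-values were 1.52 and 0.591 in Dox+ replicates 2 and 3, and 1.42 and 0.643 in Dox- replicates 2 and 3. The merged Dox+ peak there spanned 520 bp (fold 2.25) and the merged Dox- peak 2062 bp (fold 2.53). A peak over the gene start was called in Dox- replicate 2 alone (fold 4.12, 93.6th percentile) and in neither merged list. The other 3 regions at Tgfbi, in its first 3.09 kb and past its 3′ end, were each called in 1 replicate list. The one at 38.3 to 38.8 kb after the start was also in the merged Dox- list (fold 1.86).

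Thbs1 was the only one of the 5 genes with a peak in Dox- replicate 1. That peak lay in the region 15.5 to 18.5 kb after the start, just past the 3′ end of the gene, which 5 of 6 replicate lists held. Its folds were 2.71 and 2.35 in Dox+ replicates 2 and 3, and 2.58, 2.84 and 2.27 in Dox- replicates 1, 2 and 3, so these values overlapped between the groups. The merged folds of this region were 2.49 in Dox+ and 2.26 in Dox-. At the Thbs1 start, the merged peak had a fold of 1.74 in Dox+ (6.18th percentile) and of 3.98 in Dox- (94.2nd percentile). The replicate folds there were closer, at 2.1 and 2.2 in Dox+ and 2.02 and 2.58 in Dox-. A region inside the gene at 1.77 to 3.58 kb had merged folds of 2.32 in Dox+ and 3.94 in Dox-, with single replicate folds of 2.13 (Dox+ 2), 2.34 (Dox- 2) and 1.53 (Dox- 3).

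Ltbp2, the longest of the 5 genes, had its strongest SMAD3 peak in an intron at 28.7 to 29.9 kb after the start. The merged folds were 5.03 in Dox+ (98th percentile) and 4.85 in Dox- (97.6th percentile), the highest SMAD3 folds at any of the 5 genes in either merged list. The replicate folds of the same region were lower, at 2.70 in Dox+ replicate 2, 1.80 in Dox- replicate 2 and 2.42 in Dox- replicate 3. In Dox+ the widths were unlike, with 240 bp for the merged peak and 1104 bp for the replicate 2 peak. The Dox- lists alone held peaks at the gene start (fold 2.36 in replicate 2, 2.39 merged), 14.1 kb into the gene (1.80 and 2.55) and 9.0 kb upstream (2.55 and 1.78), each in 1 replicate list and the merged list, and a peak 32.6 kb into the gene (1.33) in Dox- replicate 2 alone.

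The deposited table of differential binding lists 2080 sites that passed the false discovery rate (FDR) and fold thresholds of the authors, with 904 lower and 1176 higher in Dox+. The 6 replicate lists gave 9 regions at the 5 genes that were present in at least 2 lists and so could be tested, namely 3 at Thbs1, 2 at Ctgf, 2 at Cyr61, 1 at Tgfbi and 1 at Ltbp2. Of these, 2 were listed, both lower in Dox+, while 6.84% of all 13218 such regions were listed as lower. At chr13:56599627-56602078, upstream of Tgfbi, the authors' mean log2 concentration was 3.66 in Dox+ and 5.11 in Dox-. At chr2:118127376-118130334, past the 3′ end of Thbs1, the authors' means were 5.25 in Dox+ and 6.72 in Dox-, and the latter exceeded 99.8% of the Dox- means in the table. The concentrations are log2 mean normalized reads of the site, come without a value per replicate, and could not be retested here. The replicate fold enrichments of the peaks at both listed sites, given above, overlapped between the groups. The merged fold was lower in Dox+ at the Tgfbi site but higher in Dox+ at the Thbs1 site.

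Of all protein-coding genes, 3.85% had a listed site with lower SMAD3 in their window and 6.64% one with higher SMAD3. Among the 5 genes, 2 had a lower site and 0 a higher one. The shares include genes without any SMAD3 peak, where no site could be listed, so the 5 genes are unlike that background. The deposited comparison of OCT4 with SMAD3 in Dox+ cells had no listed site at the 5 genes, while 9.08% of all protein-coding genes had one.

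OCT4 was found at 1 of 5 genes, Ctgf, and 4.85% of all protein-coding genes had a merged OCT4 peak in their window. The peak, chr10:24590609-24590810, had its summit 4.71 kb upstream of the Ctgf start in an intron of the noncoding gene Gm15270, with a fold of 8.44 (84.9th percentile of its list) and a −log10 q-value of 18.6. It was called on the pooled replicates only, and no SMAD3 list had a peak there. The signal of the pooled ChIP minus the pooled input, which has no replicate error, averaged 28.4 for OCT4 over the central 200 bp, above the median of 21.6 over all OCT4 loci. For SMAD3 it was 5.95 in Dox+, where the median locus had 7.24, and −0.968 in Dox-, where the median was 0.028. The profile at this locus shows OCT4 highest near the center, at 37.5, with a lower rise on the other side of the center. In the bins of the OCT4 maximum the SMAD3 Dox+ track also had a local maximum, and the SMAD3 Dox- track was negative. The SMAD3 Dox+ track was highest, at 12.6, 655 bp from the center and the SMAD3 Dox- track, at 13.2, −1145 bp from it. In the flanks, 1500 to 2000 bp from the center, the means were −0.465 for OCT4, −0.341 for SMAD3 Dox+ and 2.38 for SMAD3 Dox-.

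**Figure D2:**
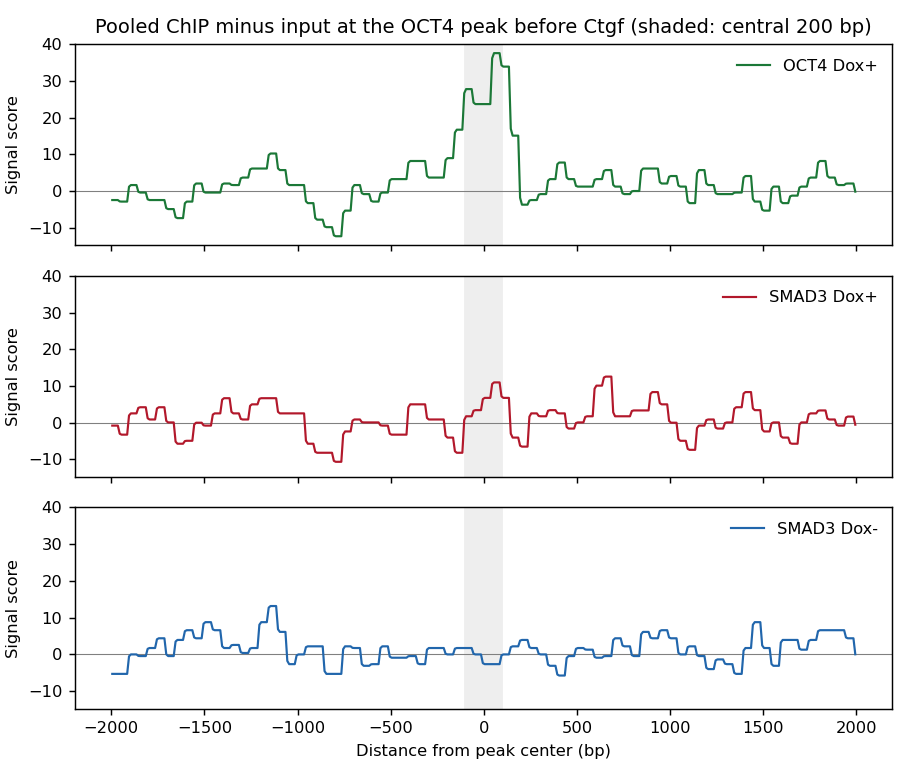
Signal score (pooled ChIP coverage minus pooled input coverage) against distance in bp from the center of the OCT4 peak upstream of Ctgf, for OCT4 Dox+ (green), SMAD3 Dox+ (red) and SMAD3 Dox- (blue). OCT4 averages 28.4 over the shaded 200 bp, SMAD3 5.95 in Dox+ and −0.968 in Dox-.

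To compare Dox+ and Dox- with the replicates as the unit, the percentage of each window covered by SMAD3 peaks was computed in every list. At Ctgf the coverage was 0, 11.8 and 2.26% in Dox+ replicates 1, 2 and 3, and 0, 4.07 and 8.47% in Dox-. At Cyr61 it was 0, 32.5 and 15.2% in Dox+, and 0, 19.7 and 4.04% in Dox-. In each group the list with the most peaks had the largest coverage at Cyr61, and the groups overlapped at both CCN genes.

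At Tgfbi the coverage was 0, 5.29 and 3.39% in Dox+, and 0, 3.99 and 3.56% in Dox-. At Thbs1 it was 0, 13.6 and 8.81% in Dox+, and 5.38, 18.3 and 9.88% in Dox-. At Ltbp2 it was 0, 0.974 and 0% in Dox+, and 0, 2.99 and 0.828% in Dox-. Each Thbs1 and Ltbp2 value in Dox- was at or above the value of the same rank in Dox+, but the groups overlapped at each gene.

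The difference between the group means (Dox+ minus Dox-) was 0.502 percentage points at Ctgf, 7.98 at Cyr61, 0.374 at Tgfbi, −3.71 at Thbs1 and −0.947 at Ltbp2. Exact two-sided permutation tests gave p = 1, 0.7, 1, 0.5 and 0.7 in that order, and p = 1 for each gene after Benjamini-Hochberg adjustment over the 14706 genes with a peak in a replicate list. With 3 against 3 lists the smallest p is 0.1. None of the 5 differences exceeded the replicate spread, and 0 of 5 genes had coverages that did not overlap between the groups, beside 0.17% of the 14706 genes. The mean coverage at Cyr61 was 15.9 ± 16.3% in Dox+ and 7.93 ± 10.4% in Dox- (SD, n = 3), so the SDs were as large as the means. A lower coverage can reflect a shorter peak list, binding in fewer cells or weaker binding per cell, which cannot be told apart here. The replicate SMAD3 lists covered from 0.123 to 17.2 Mb of the genome.

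**Figure D3:**
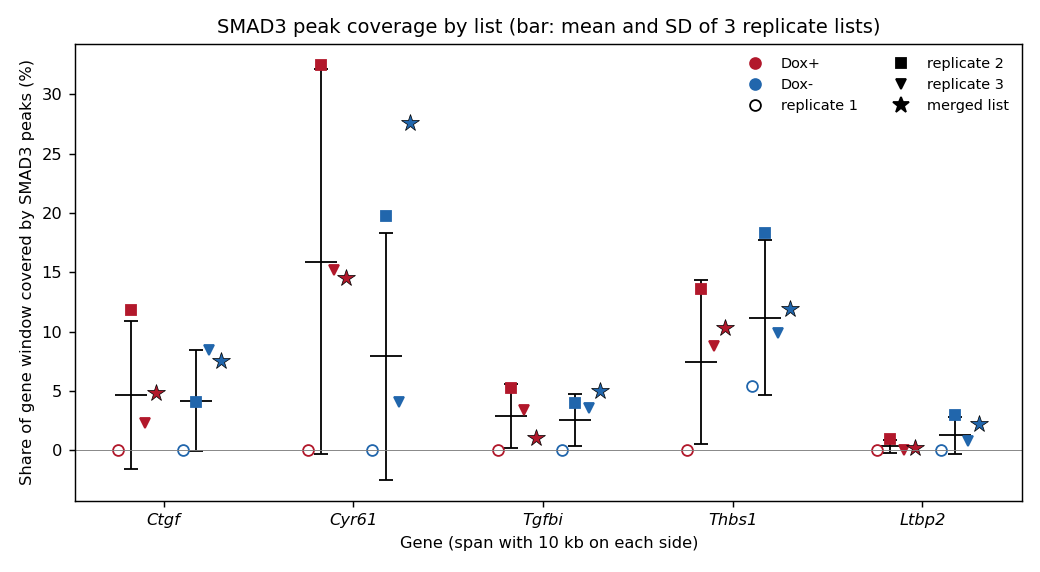
Percentage of each gene window covered by SMAD3 peaks in Dox+ (red) and Dox- (blue), with open circles for replicate 1, squares for replicate 2, triangles for replicate 3, stars for the merged lists, and bars for the mean and SD of the 3 replicate lists. The groups overlap at every gene, and the merged Dox- star stands above the merged Dox+ star at all 5.

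The merged lists gave a different order from the replicate means at the CCN genes and Tgfbi. The merged coverage was 4.87% in Dox+ and 7.55% in Dox- at Ctgf, 14.5 and 27.6% at Cyr61, and 1.04 and 4.96% at Tgfbi. It was 10.3 and 11.9% at Thbs1 and 0.212 and 2.22% at Ltbp2. It was thus larger in Dox- at 5 of 5 genes, beside 36.8% of the 14706 genes, but each merged list is 1 set of pooled libraries with no replicate check. Only 10521 protein-coding genes had a merged Dox- peak, so some of the 14706 genes could not be larger in Dox-. The 5 genes all had merged peaks in both groups and are unlike that background. The median merged difference over the 5 genes was −2.68 percentage points, against 0 over the 14706 genes, whereas the median difference of the replicate means was 0.374 against 0.341. The sign of the median over the 5 genes therefore depended on whether pooled or single libraries were used.

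A list of 25 other genes known as SMAD3 or TGF-β targets was described in the same way. Of these, 23 had a merged SMAD3 peak in Dox+ and 24 in Dox-, beside 52.5% and 48% of all protein-coding genes. The actin gene Acta2 had neither. Listed sites with lower SMAD3 in Dox+ were found at 7 of 25 genes, beside 3.85% of all protein-coding genes. Among them were the matrix genes Fn1, Col1a1, Col1a2 and Lox, the pathway inhibitors Smad7 and Pmepa1, and Tpm1, which encodes a tropomyosin. Listed sites with higher SMAD3 were found at 3 of 25, beside 6.64% of all protein-coding genes. These were Tgif1, which encodes a SMAD corepressor, the cell cycle inhibitor gene Cdkn1a, and again Tpm1. The merged coverage was larger in Dox- at 15 of the 25 genes, beside 36.8% of the 14706 genes, and in Dox+ at 9. Its median difference was −0.32 percentage points.

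The lysyl oxidase gene Lox, whose product crosslinks collagen, had authors' means of 2.73 in Dox+ and 5.32 in Dox- at its listed site. At Fn1, the fibronectin gene, they were 3.64 and 5.29, and at Smad7 2.80 and 4.51. At the higher sites they were 3.00 in Dox+ and 1.5 in Dox- at Tgif1, and 4.43 and 2.93 at Cdkn1a. The largest merged coverage differences toward Dox- were at Smad7 (−11.2 percentage points), Col1a1 (−9.82) and Lox (−7.27), and those toward Dox+ at Tgif1 (6.88), the vimentin gene Vim (4.08) and the AP-1 gene Junb (2.66). None of the 25 genes had replicate coverages that did not overlap between the groups, beside 0.17% of the 14706 genes. Fn1 was the only one with a merged OCT4 peak, beside 4.85% of all protein-coding genes. A listed site of the OCT4 against SMAD3 comparison was found at 7 of 25, beside 9.08%.

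The 14 paralogs of the 5 genes, the other CCN, thrombospondin, LTBP and fasciclin genes, had a merged SMAD3 peak at 7 of 14 genes in Dox+ and 9 of 14 in Dox-. The shares of all protein-coding genes were 52.5% and 48%. Listed sites were lower in Dox+ at Ltbp1 and Ltbp3, and higher at Thbs3, Ltbp4 and Stab2. Of all protein-coding genes, 3.85% had a lower and 6.64% a higher site. Stab2 was also the only paralog with a merged OCT4 peak, beside 4.85% of all protein-coding genes. At Ltbp3 the authors' means were 2.72 in Dox+ and 5.20 in Dox-, and at Thbs3 they were 3.23 and 0.44. The merged coverage difference ranged from −2.31 percentage points at Stab1, −2.17 at Wisp1 and −1.54 at Wisp2 to 0.456 at Thbs2, 3.30 at Ltbp4 and 8.82 at Thbs3, with a median of 0. Thbs1 and Thbs3 thus had listed sites in opposite directions, a difference that was not tested.

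**Figure D4:**
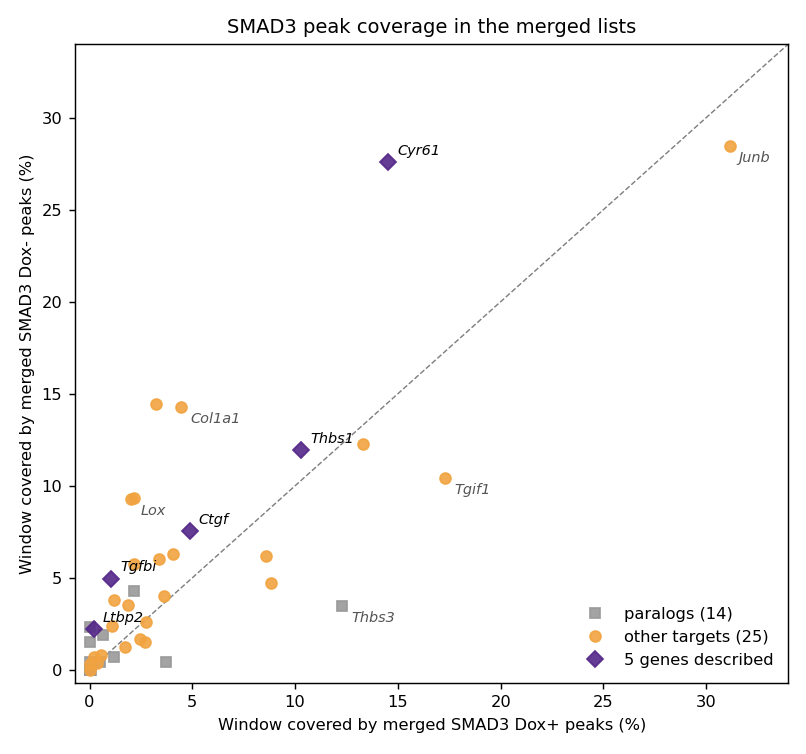
Percentage of the gene window covered by merged SMAD3 peaks in Dox+ (x axis) and Dox- (y axis) for the 5 genes (diamonds), the 25 other targets (circles) and the 14 paralogs (squares), with the dashed line at equal coverage. In these pooled lists all 5 genes lie above the line, with Cyr61 farthest from it, while Tgif1 and Thbs3 lie below it.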

How the data were processed

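Trimmed reads were aligned by the authors to mm10 with Bowtie 2, and peaks were called with MACS2 2.1.0 (version from the submitters' processing notes) over the pooled inputs, per replicate and on pooled replicates, OCT4 as narrow and SMAD3 as broad peaks. Deposited peaks carry a −log10 q-value and a fold over input (a ratio, not on a log scale). In the deposited matrices, values are a score that can be negative, the difference of pooled ChIP and pooled input coverage in bins of 10 bp. The authors' DiffBind tables give log2 mean concentrations per group, which were used, and a log2 fold, p-value and FDR per site, which were not used. The tables keep sites whose FDR is no more than 0.1 and whose log2 fold is 1 or more in size. Gapped-peak lists were not used. Read totals per library were not used, so depth per list is given only as its number of peaks.

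Windows were gene spans of GENCODE vM21 with 10 kb on each side. The covered percentage of each window was compared between 3 Dox+ and 3 Dox- lists by exact permutation of the 20 assignments. Tested regions were rebuilt as joined peaks present in at least 2 of the replicate lists, and all 2080 listed sites equaled one. Every one of the 5 genes was named, and of the other lists the genes with a listed Dox+ against Dox- site or a merged OCT4 peak and the 3 highest and 3 lowest merged differences. The 5 genes, the lists and the tests were chosen with earlier results of these data known. Alternatives are given in the closing section. Sequences were read from GRCm38.p6 (RefSeq), the assembly of mm10. Python 3.11.15 was used with numpy 2.4.6, pandas 2.3.3 and matplotlib 3.10.9, and the coverage and permutation code was first tested with simulated peaks.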

Additional observations from a re-analysis of the deposited data

How the results depend on the processing

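No coverage difference could pass p = 0.05 under any alternative, because exact tests of so few lists cannot give a p that small. The p-values therefore say nothing about stability. The lowest was 0.1, which is the smallest an exact permutation test of 3 against 3 lists can give. Where a value below turned, the cause was not tested. For the counts of genes in this paragraph, the share of all protein-coding genes was not computed. With no flank, a merged SMAD3 peak was left at 4 genes in Dox+ and 4 in Dox-, the difference was −4.22 percentage points at Ctgf and the median over the 5 genes −0.82, 0 genes had an OCT4 peak and 0 a listed site. With a 50 kb flank, both Tgfbi and the median were −0.118. With 10 kb around the gene start, 4 genes had a merged Dox+ peak and 1 a listed site. With peaks at a −log10 q-value of at least 2, the difference was −0.262 at Tgfbi and 0.325 at Ltbp2, and 4 genes had a merged Dox+ peak and 3 a merged Dox- peak. With merged peaks that at least 2 replicate lists overlap, 4 genes had a Dox+ peak and 0 an OCT4 peak. With every list cut to the 420 strongest peaks, 0 of the 5 genes kept a peak in any list, so the median of 0 was fixed by the cut and says nothing about stability.

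Leaving out 1 replicate at a time moved the difference from −3.05 to 2.84 at Ctgf, −0.31 to 15.9 at Cyr61, −0.884 to 1.82 at Tgfbi, −6.79 to 0.026 at Thbs1 and −1.58 to −0.0891 at Ltbp2, and the median from −1.58 to 1.82. Without Dox+ replicate 2 the signs at Ctgf, Cyr61 and Tgfbi turned, without Dox- replicate 1 those at Ctgf and Tgfbi, and without Dox+ replicate 1 that at Thbs1. Without replicate 1 of both groups and with the other lists cut to 4038 peaks, Ctgf was at −1.58, Tgfbi at −2.17 and the median at −1.58, and 1 gene, Tgfbi, did not overlap between the groups, beside 16.5% of the 10121 genes with a peak in these lists.

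Whether replicate numbers pair the samples was not resolved. The deviations of same-numbered lists over 14706 genes correlated at 0.728, 0.663 and −0.297, and those of differently numbered lists from −0.735 to 0.611. The number of peaks ranked the replicates alike in both groups, so these correlations cannot decide pairing. A replicate block cannot change a difference of means in this balanced design (7.98 at Cyr61 in both). Its exact paired test gave p = 0.25 at Thbs1, the smallest it can give, 0.5 at Cyr61 and Ltbp2, and 1 at Ctgf and Tgfbi. The remaining alternatives were chosen after seeing the data. Coverage relative to the genome-wide coverage of the list gave a difference of −23.4 at Ctgf and −8.54 at Tgfbi, in multiples of the genome-wide coverage. The difference was −79.4 at Thbs1 (exact permutation p = 0.1), positive at Cyr61 and negative at Ltbp2. At Thbs1 the highest relative coverage came from a single peak in Dox- replicate 1, the shortest of the Dox- lists. Thbs1 was then the 1 gene of the 5 whose groups did not overlap, beside 3.24% of the 14706 genes. The merged lists gave −2.68 at Ctgf, −13.1 at Cyr61, −3.92 at Tgfbi and −2.68 for the median.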
